A study of Homo sapiens with 6 samples.

Results

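The genes described here are 47 genes of the lysosome and of autophagy, taken by name from a table of 31164 genes. They comprise the 3 TFEB family transcription factors, 5 lysosomal membrane proteins, 8 cathepsins, 13 other hydrolases and their activator proteins, 6 subunits of the proton pump V-ATPase and 12 autophagy factors. Each of the 47 symbols was found once in the table. RNA came from cells labelled HT29, an established human colorectal cancer line, with no treatment. The 3 shNC libraries are controls with the genotype WT, and the 3 shHMGA1 libraries come from cells with a stable knockdown of the chromatin protein HMGA1. No hairpin sequence is given. The labels do not tell whether the 3 replicates of a group were grown apart, and a p-value here covers library-to-library spread that could be technical. The series asks how HMGA1 affects gene expression, with lipid synthesis as its stated interest.

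Lysosomes are acid compartments in which hydrolases break down proteins, sugars and lipids that arrive by endocytosis or by autophagy. V-ATPase pumps in the protons, membrane proteins such as LAMP1 and LAMP2 line the organelle, and autophagy delivers cytoplasm in vesicles coated with proteins of the LC3 and GABARAP families. TFEB, TFE3 and MITF bind a DNA motif shared by many of these genes and are held in the cytoplasm when the kinase complex mTORC1 is active on the lysosome. Epithelial cells of the gut and cancer cells use the system to recycle nutrients, and lysosomal acid lipase frees fatty acids and cholesterol from stored lipid.

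HMGA1 was measured at 785, 810 and 854 FPKM (fragments scaled to transcript length and to the library's mapped fragments) in the shNC libraries. It stood at 465, 565 and 508 FPKM in the shHMGA1 libraries. The groups did not overlap, and the knockdown left 62.8% of the control level (log2 fold change -0.67, SE 0.08, limma adjusted p = 0.0018). With 3 libraries against 3, a two-sided exact permutation test cannot fall below p = 0.1, the value it gave for HMGA1. The markers fixed for colonic epithelium were present only in part. EPCAM (194 to 272 FPKM), KRT8, KRT18, CDH1 (33.6 to 38.6) and CDX2 (7.12 to 8.97) were present. VIL1, CDH17, CEACAM5, GPA33 and CDX1, which colonic epithelium transcribes, were at 0.22 FPKM or below in every library, and KRT20 was at 0.84 to 1.14. The name HT29 rests on the labels alone, and the identity of the line was not tested. The 8 leukocyte markers in the table summed to 0.51 to 0.62 FPKM in shNC and 0.38 to 0.54 in shHMGA1, with PTPRC at 0.01 or below. Of the fibroblast markers, COL1A1 was at 6.67 to 11.35 FPKM. COL3A1 was at 0.17 to 0.95, higher in every shHMGA1 library than in any control, and the others were at 0.25 or below. Endothelial markers were at 0.18 or below. Mitochondrially encoded genes held 11.4% to 13.5% of the FPKM total in shNC, 12.5% in shHMGA1 replicate 1 and 8.94% and 8.50% in shHMGA1 replicates 2 and 3. Relative to shNC replicate 1, the depth read from low values was 0.717 to 0.859 in the other 5 libraries.

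Of the genes listed here, more were lower than higher after the knockdown. They were chosen with earlier results of these data known. In the 8 lists of other pathway genes given below, the share called lower ran from 7.69% to 37.0%. Of the 46 genes that reached a mean of 1 FPKM and were tested, 15 fell and 2 rose (limma on log2(FPKM + 1), Benjamini-Hochberg adjusted p under 0.05 over all 14304 genes tested). Fell and rose refer to this call throughout. Among all genes tested, 12.3% were called lower and 16.1% were called higher. The median log2 fold change was -0.13 over the 46 genes and 0.02 over all genes tested. In 23 of the 46 every shHMGA1 library lay below every shNC library, and in 5 every one lay above, against 20.5% and 25.4% of all genes tested. In bulk RNA, fewer cells of a kind and less RNA per cell cannot be told apart. The count of 15 was 9 without shNC replicate 1 and 8 without shNC replicate 2, and the share among all genes tested dropped too, to 7.01% and 6.66%. The count of 2 that rose became 5 on leaving out shHMGA1 replicate 1, 1 on leaving out either shNC replicate 1 or shNC replicate 3, and 0 on leaving out either shNC replicate 2 or shHMGA1 replicate 3. Without the mitochondrially encoded genes 20 fell and 2 rose, beside 14.1% lower and 12.7% higher among all genes. The part of the mitochondrial share in these changes was otherwise not tested.

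**Figure D1:**
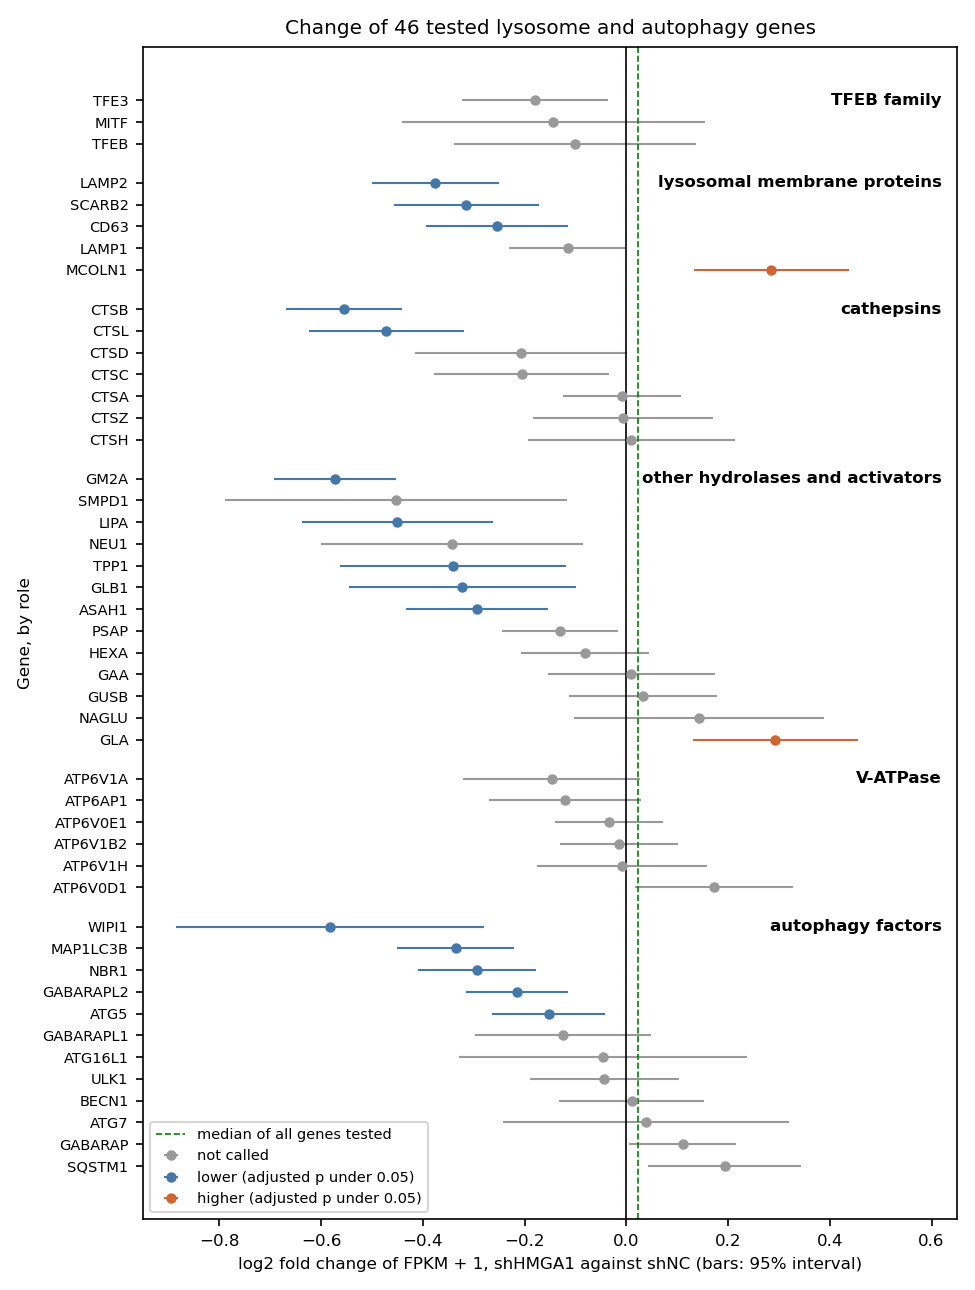
The log2 fold change of FPKM + 1 (shHMGA1 against shNC) is plotted for the 46 tested genes by role, with 95% intervals from limma. Blue points are the 15 genes that fell, orange points the 2 that rose (MCOLN1 and GLA) and grey points the rest, and the dashed line marks the median of all genes tested, 0.02.

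The TFEB family was transcribed at low level and none of its 3 genes passed the limma test. At an unadjusted p under 0.05 the count was 1 (TFE3), and it was 0 by adjusted p in the authors' deposited table. With 12.3% lower and 16.1% higher among all genes tested, a count of 0 in 3 genes does not set the family apart. TFE3 measured 10.6, 10.5 and 10.0 FPKM in shNC and 8.70, 9.47 and 8.91 in shHMGA1. Each knockdown library of TFE3 lay below each control library, and the log2 fold change was -0.18 (SE 0.06, limma adjusted p = 0.0655). TFE3 was called lower in 2 alternatives, with median-of-ratios scaling (adjusted p = 0.0493) and without mitochondrially encoded genes (adjusted p = 0.0393), and over all 11 alternatives that kept every library its adjusted p ran from 0.0393 to 0.114. TFEB, the master regulator of lysosomal genes, was at 3.20, 2.98 and 3.18 FPKM in shNC and 2.84, 2.48 and 3.24 in shHMGA1. Its groups overlapped, and its log2 fold change of -0.10 had a 95% interval from -0.34 to 0.14 (limma adjusted p = 0.483). MITF, best known as the melanocyte regulator, was close to the minimum for the test. It was measured at 1.48, 1.12 and 1.25 FPKM in shNC and 1.09, 0.90 and 1.21 in shHMGA1 (log2 fold change -0.14, SE 0.13, limma adjusted p = 0.426). In the authors' deposited table these genes had the lowest control levels after CTSS, at 171 for TFEB and 147 for MITF on a normalized count scale (155 and 115 in the knockdown). Of the 4 melanocyte markers, PMEL was lower (9.52 ± 0.950 against 6.60 ± 1.04 FPKM, SD, n = 3 each, limma adjusted p = 0.0235, called in 2 of the 6 fits that drop a library), while MLANA, TYR and DCT were at 0.45 or below.

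The motif that TFEB family proteins recognise was searched for in promoter windows from RefSeq (GRCh38.p14, from 250 bases before to 50 bases after each annotated start). The letters searched were CACGTG and the longer TCACGTGA that contains it. Each reads the same on both strands. Windows were matched by symbol for 36 of the 47 genes, 53 windows in all. ASAH1, ATP6V0E1, ATP6V1A, ATP6V1B2, ATP6V1H, CTSB, CTSS, HEXA, LAMP2, NAGLU and PSAP were not matched. TCACGTGA was in 5 of the 53 windows (9.43%) and in 0.98% of all 35116 windows. CACGTG was in 8 of the 53 (15.1%) and in 7.26% of all windows. The windows of these genes were richer in G and C bases. The median GC share was 67.3% in the 23 windows of genes that fell and 69.3% in the 30 of the others. In all windows it was 58.7%. The part of GC content in the motif shares was not tested. CD63, CTSD and NEU1 held CACGTG without the longer form. The sites of the 5 genes that hold TCACGTGA are shown here. Capitals mark TCACGTGA.
MCOLN1, chr19:7522564-7522607, plus strand, 42 bases before the start: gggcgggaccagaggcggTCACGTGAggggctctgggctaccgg
MCOLN1, chr19:7522591-7522634, plus strand, 15 bases before the start: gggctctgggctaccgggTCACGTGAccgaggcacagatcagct
GAA, chr17:80101486-80101529, plus strand, 77 bases before the start: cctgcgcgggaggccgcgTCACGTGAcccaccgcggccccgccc
GAA, chr17:80101531-80101574, plus strand, 32 bases before the start: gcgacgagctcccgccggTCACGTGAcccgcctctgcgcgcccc
LAMP1, chr13:113297192-113297235, plus strand, 29 bases before the start: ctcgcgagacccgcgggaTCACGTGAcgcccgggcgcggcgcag
LAMP1, chr13:113297219-113297262, plus strand, 2 bases before the start: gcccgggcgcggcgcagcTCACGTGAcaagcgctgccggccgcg
ATP6V0D1, chr16:67481192-67481235, minus strand, 60 bases before the start: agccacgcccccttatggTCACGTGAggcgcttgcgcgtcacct
CTSA, chr20:45891291-45891334, plus strand, 26 bases before the start: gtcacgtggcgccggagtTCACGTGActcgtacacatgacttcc

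The distance is that of the first base of TCACGTGA. LAMP1, GAA and MCOLN1 held the 8 letters in 2 places each. None of these 5 genes was among the 15 that fell. MCOLN1 rose, and the log2 fold changes of the others were 0.17 for ATP6V0D1, 0.01 for GAA, -0.01 for CTSA and -0.12 for LAMP1, none of them called. Of the 12 genes that fell and had a window, 1 (CD63) held CACGTG and 0 held TCACGTGA. GLA, the other gene that rose, had a window and held neither motif. For comparison, the whole window of GM2A, which fell, has neither motif, and that of MCOLN1, which rose, has the pair of sites shown above. These 2 windows are examples and not a pattern among the genes that rose or fell. A match describes letters in a window and not a bound site, and the absence of a match concerns these windows alone.
MCOLN1, chr19:7522374-7522673, plus strand: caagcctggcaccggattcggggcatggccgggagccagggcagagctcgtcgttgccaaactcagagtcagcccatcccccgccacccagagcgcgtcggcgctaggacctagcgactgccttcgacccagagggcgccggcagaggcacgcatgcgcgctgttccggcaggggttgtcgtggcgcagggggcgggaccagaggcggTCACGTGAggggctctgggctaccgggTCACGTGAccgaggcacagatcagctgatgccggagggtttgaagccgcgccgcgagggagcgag
GM2A, chr5:151252935-151253234, plus strand: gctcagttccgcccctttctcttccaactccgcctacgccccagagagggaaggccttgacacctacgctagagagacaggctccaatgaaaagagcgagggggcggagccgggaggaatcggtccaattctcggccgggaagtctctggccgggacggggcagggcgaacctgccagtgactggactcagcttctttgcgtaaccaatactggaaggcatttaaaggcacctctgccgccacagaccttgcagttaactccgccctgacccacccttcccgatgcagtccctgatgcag

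Of the 5 lysosomal membrane proteins, 3 fell and 1 rose. LAMP2, a glycoprotein of the lysosomal membrane needed for chaperone-mediated autophagy, was at 33.2, 34.3 and 32.5 FPKM in shNC and 26.7, 24.7 and 25.0 in shHMGA1. The knockdown libraries were all lower, at 76.4% of the control mean (log2 fold change -0.38, SE 0.05, limma adjusted p = 0.00369). LAMP2 lies on the X chromosome at 120427827 to 120469365, minus strand (GENCODE 29, GRCh38). SCARB2, an integral membrane protein of lysosomes, measured 32.6, 32.7 and 31.1 FPKM in shNC and 24.3, 27.5 and 25.2 in shHMGA1. Again no libraries overlapped between the groups (log2 fold change -0.31, SE 0.06, limma adjusted p = 0.0102). CD63, a tetraspanin of late endosomes and exosomes, was the most abundant of these membrane proteins. Its values were 303, 315 and 339 FPKM in shNC and 258, 283 and 261 in shHMGA1 (log2 fold change -0.25, SE 0.06, limma adjusted p = 0.0201). LAMP1, the other major membrane glycoprotein, was at 121, 120 and 119 FPKM against 109, 107 and 117, so its groups did not overlap either. Its log2 fold change was -0.12 (SE 0.05, limma adjusted p = 0.118), and it was called lower only with quantile scaling (adjusted p = 0.0468, in a range of 0.0468 to 0.199 over the 11 alternatives that kept every library).

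MCOLN1 encodes the calcium channel TRPML1, which releases calcium from lysosomes. It was at 8.38, 7.74 and 8.12 FPKM in shNC and 10.1, 9.57 and 10.5 in shHMGA1. Every knockdown library was higher, at 125% of the control mean (log2 fold change 0.29, SE 0.06, limma adjusted p = 0.0178). MCOLN1 lies on chromosome 19 at 7522626 to 7534009, plus strand, and its exons overlap those of PNPLA6 on the same strand in the annotation, so reads of these neighbours may not be fully separable. Leaving out each library in turn, the adjusted p of MCOLN1 ran from 0.0247 to 0.0697, and the call was lost without shNC replicate 2 or shHMGA1 replicate 3. For CD63 it ran from 0.0204 to 0.0736, and dropping shNC replicate 2 or 3 or shHMGA1 replicate 3 ended the call. LAMP2 and SCARB2 were called in all 6 of these fits.

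Among the cathepsins, the proteases of the lysosome, 2 of 7 tested genes fell and 0 rose. That was 28.6% and 0%, beside 12.3% lower and 16.1% higher among all genes, and 7 genes are few for such shares. CTSB, a cysteine protease, was the most abundant, at 242, 251 and 261 FPKM in shNC and 166, 177 and 168 in shHMGA1. The groups were far apart compared with their spread, and 67.9% of the control level was left (log2 fold change -0.56, SE 0.05, limma adjusted p = 0.000926). CTSL, a related cysteine protease, went from 55.7, 57.3 and 59.3 FPKM in shNC to 37.7, 42.3 and 43.5 in shHMGA1. It was at 71.7% of control with no overlap (log2 fold change -0.47, SE 0.06, limma adjusted p = 0.00339). It lies on chromosome 9 at 87725519 to 87731393, plus strand. Both were called with any 1 library left out, and both calls were also made in the 11 other alternatives.

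The other cathepsins did not pass. CTSD, the main aspartic protease of lysosomes, was at 81.3, 85.4 and 96.1 FPKM in shNC and 67.6, 80.9 and 78.7 in shHMGA1. The highest knockdown library lay just below the lowest control library (log2 fold change -0.21, 95% interval -0.42 to 0.00, limma adjusted p = 0.121). CTSC, which activates serine proteases of immune cells, had 29.8 ± 0.552 FPKM in shNC and 25.8 ± 2.51 in shHMGA1 (SD, n = 3 each, limma adjusted p = 0.0728), and of the 6 fits that drop a library it was called in that lacking shHMGA1 replicate 2 (adjusted p = 0.0167, in a range up to 0.197), and also with quantile scaling and without mitochondrially encoded genes. CTSA, which protects beta-galactosidase and neuraminidase, CTSZ and CTSH had log2 fold changes of -0.01, -0.01 and 0.01, and the widest of their 95% intervals ran from -0.19 to 0.21. CTSS, a cathepsin of antigen-presenting cells, was at 0.10 to 0.28 FPKM in the 6 libraries and was not tested.

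Of the 13 other hydrolases and activators, 5 fell, 1 rose and 7 did not pass. The shares were 38.5% lower and 7.69% higher, beside 12.3% and 16.1% of all genes. The count of 5 was 2 on dropping shNC replicate 1 or 2, and 3 on dropping shNC replicate 3 or shHMGA1 replicate 2 or 3. GM2A, the activator protein that presents ganglioside GM2 to its hydrolase, was at 21.0, 21.3 and 20.1 FPKM in shNC and 13.8, 13.6 and 13.6 in shHMGA1. The knockdown libraries were nearly equal and all lower, at 65.7% of control (log2 fold change -0.57, SE 0.05, limma adjusted p = 0.000987). GM2A lies on chromosome 5 at 151212150 to 151270440, plus strand. LIPA, the lysosomal acid lipase, measured 30.1, 33.9 and 34.6 FPKM in shNC and 21.7, 25.5 and 24.2 in shHMGA1. Its groups did not overlap (72.4% of control, log2 fold change -0.45, SE 0.08, limma adjusted p = 0.00797). LIPA lies on chromosome 10 at 89213569 to 89414557, minus strand, and its exons overlap those of IFIT2 on the opposite strand. GM2A and LIPA kept their call when any single library was dropped.

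ASAH1, the acid ceramidase, was at 53.9, 54.8 and 51.2 FPKM in shNC and 41.0, 46.3 and 42.6 in shHMGA1 (log2 fold change -0.29, SE 0.06, limma adjusted p = 0.0124). All 3 knockdown values were lower. Dropping shNC replicate 1 or 2 ended its call, and its adjusted p was 0.0111 to 0.052 over the 6 such fits. TPP1, the tripeptidyl peptidase, went from 35.2, 36.2 and 39.2 FPKM to 32.4, 29.5 and 25.2 (log2 fold change -0.34, SE 0.09, limma adjusted p = 0.0347). GLB1, the lysosomal beta-galactosidase, went from 23.8, 26.2 and 26.7 FPKM to 23.2, 19.7 and 18.1 (log2 fold change -0.32, SE 0.09, limma adjusted p = 0.0422). In both, shHMGA1 replicate 1 was the knockdown library closest to the controls. When libraries were dropped in turn, TPP1 and GLB1 were called only with that library absent, with adjusted p from 0.0138 to 0.103 and from 0.00946 to 0.12. With the replicate number as a block neither was called (adjusted p = 0.0651 and 0.078). Exons of GLB1 overlap those of TMPPE on the same strand.

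GLA, the alpha-galactosidase that is deficient in Fabry disease, was the hydrolase that rose. It was at 30.7, 31.7 and 31.4 FPKM in shNC and 42.0, 35.2 and 38.7 in shHMGA1. The knockdown libraries were all higher but spread more widely than the controls (124% of control, log2 fold change 0.29, SE 0.07, limma adjusted p = 0.0205). Dropping any shNC library or shHMGA1 replicate 3 ended the call, and the adjusted p ran from 0.0113 to 0.0723 over the 6 fits. PSAP, the precursor of the saposins, was the most abundant of all 47 genes, at 471, 485 and 508 FPKM in shNC and 447, 460 and 430 in shHMGA1. Its groups did not overlap, yet the difference was small (91.3% of control, log2 fold change -0.13, SE 0.05, limma adjusted p = 0.0821). It was called lower without mitochondrially encoded genes (adjusted p = 0.0393, in a range of 0.0393 to 0.169 over the 11 alternatives that kept every library).

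Of the hydrolases that did not pass, the sphingomyelinase SMPD1 and the neuraminidase NEU1 had larger fold changes and wider spread. SMPD1 was at 5.09 ± 0.743 FPKM in shNC and 3.47 ± 0.683 in shHMGA1 (SD, n = 3 each), a log2 fold change of -0.45 with a limma adjusted p of 0.0523. NEU1 was at 15.9 ± 1.64 and 12.4 ± 1.62 FPKM, a log2 fold change of -0.34 with a limma adjusted p of 0.0546. In both every knockdown library was below every control library, and each lay just outside the threshold. Of the 11 alternatives that kept every library, NEU1 passed in 4: the replicate number as a block (adjusted p = 0.0281), a minimum mean of 5 FPKM, no mitochondrially encoded genes and robust eBayes, in a range of 0.0281 to 0.143. SMPD1, whose mean was below 5 FPKM, was tested in the other 10 of these and passed in 3: no mitochondrially encoded genes (adjusted p = 0.0379), robust eBayes and median-of-ratios scaling, in a range of 0.0379 to 0.15. HEXA, which degrades GM2 with the GM2A protein, had a log2 fold change of -0.08 (95% interval -0.21 to 0.05). The glycosidases GAA, GUSB and NAGLU had log2 fold changes of 0.01, 0.03 and 0.14, with overlapping groups. NAGLU was called higher in 1 of the 6 fits that drop a library, the fit lacking shHMGA1 replicate 1 (adjusted p = 0.0326, in a range up to 0.638).

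**Figure D2:**
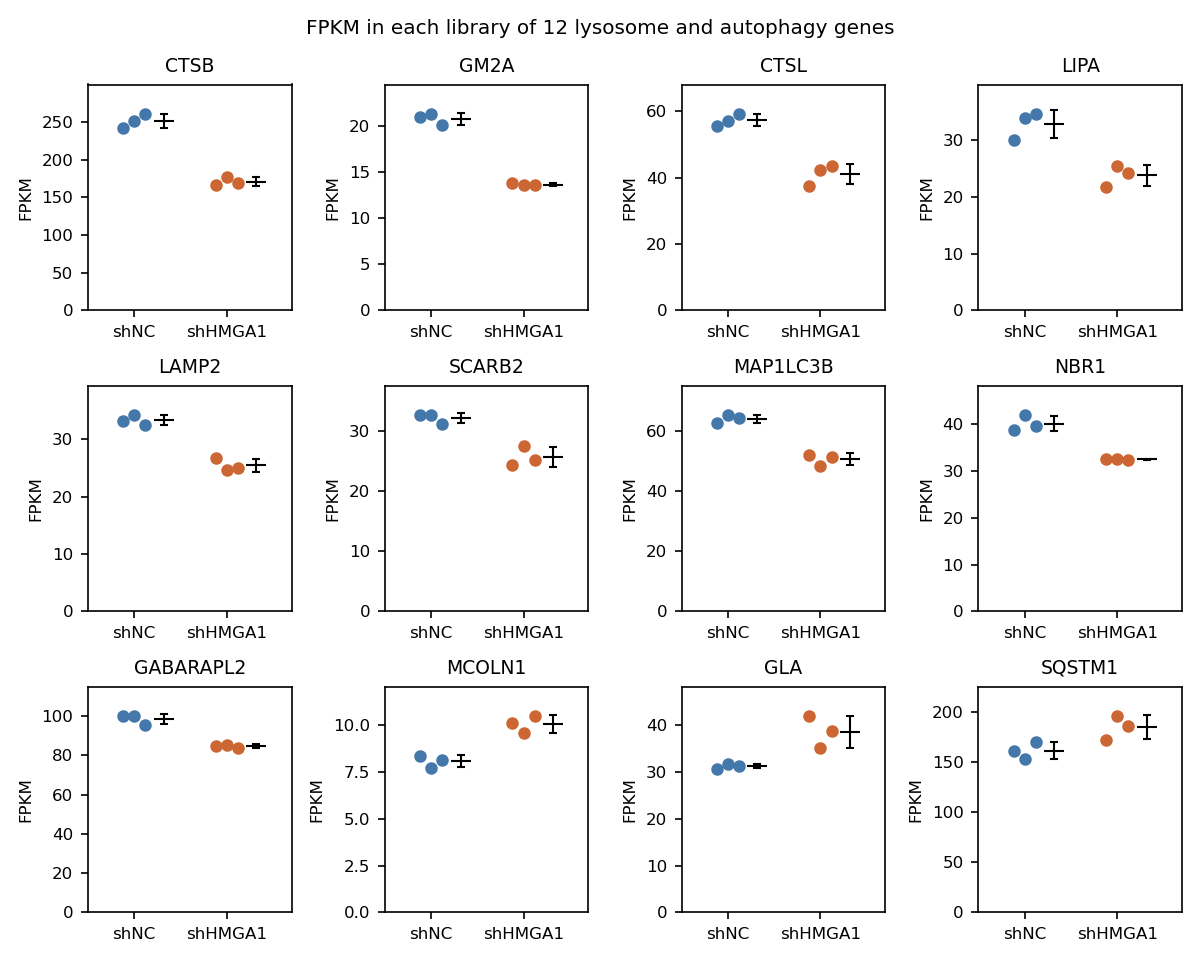
FPKM in each of the 3 shNC (blue) and 3 shHMGA1 (orange) libraries is plotted for 12 genes, with the mean and SD beside the points in black and axes that start at 0. The 9 genes in the panels from CTSB to GABARAPL2 fell, with no shared range between the groups, and MCOLN1, GLA and SQSTM1 lay higher in every knockdown library, SQSTM1 without passing the test.

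No V-ATPase subunit of the 6 passed the limma test in either direction. At an unadjusted p under 0.05 the count was 1 (ATP6V0D1), and it was 0 by adjusted p in the authors' deposited table. With 12.3% lower and 16.1% higher among all genes tested, a count of 0 in 6 genes does not set the subunits apart. ATP6V1A, the catalytic subunit that hydrolyses ATP, was at 21.3, 20.3 and 20.3 FPKM in shNC and 20.2, 16.8 and 18.8 in shHMGA1. The highest knockdown value was just below the lowest control value, with a log2 fold change of -0.15 (95% interval -0.32 to 0.03, limma adjusted p = 0.179). ATP6V0D1, which links the membrane ring to the stalk, lay above the controls in every knockdown library, at 41.8 ± 2.51 and 47.3 ± 2.68 FPKM (SD, n = 3 each; log2 fold change 0.17, limma adjusted p = 0.0904). Dropping shHMGA1 replicate 1 let it pass (adjusted p = 0.0412), while the other such fits reached up to 0.257. The accessory protein ATP6AP1 had a log2 fold change of -0.12 (limma adjusted p = 0.196). ATP6V0E1, ATP6V1B2 and ATP6V1H had -0.03, -0.01 and -0.01, and the widest of these 3 intervals ran from -0.18 to 0.16. The summed FPKM of the 6 subunits was 248 to 263 in shNC and 251 to 252 in shHMGA1. By the same sum, the 8 cathepsins went from 609 to 663 FPKM in shNC down to 487 to 545 in shHMGA1. Most of that difference lay in CTSB, with means of 251 FPKM in shNC and 171 in shHMGA1. CTSA, CTSH and CTSZ stood at 99.4%, 100.8% and 99.7% of control, so the sum does not describe the class.

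The 12 autophagy factors had 5 genes that fell and 0 that rose (41.7% and 0%, beside 12.3% and 16.1% of all genes). MAP1LC3B, the LC3 protein that coats autophagosomes, was at 62.8, 65.4 and 64.4 FPKM in shNC and 52.2, 48.4 and 51.5 in shHMGA1. The knockdown stood at 79.0% of control without overlap (log2 fold change -0.34, SE 0.05, limma adjusted p = 0.004). MAP1LC3B lies on chromosome 16 at 87383995 to 87404779, plus strand. Its exons overlap FBXO31 on the opposite strand, and the near-identical MAP1LC3B2 could share reads with it. NBR1, a receptor that brings ubiquitinated cargo to autophagosomes, measured 38.7, 41.9 and 39.5 FPKM in shNC and 32.5, 32.5 and 32.3 in shHMGA1. The knockdown values were nearly identical to each other and below all controls (log2 fold change -0.29, SE 0.05, limma adjusted p = 0.00655). GABARAPL2, a relative of LC3, went from 99.8, 99.99 and 95.3 FPKM to 85.0, 85.2 and 83.5 (log2 fold change -0.22, SE 0.04, limma adjusted p = 0.0114).

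WIPI1, which binds phosphatidylinositol 3-phosphate where autophagosomes form, had the lowest log2 fold change of the 46 genes. It was at 24.1, 22.3 and 21.9 FPKM in shNC and 12.7, 18.6 and 13.8 in shHMGA1. Its shHMGA1 replicate 2 stood apart from the other knockdown libraries, toward the controls, and the SE was correspondingly wide (log2 fold change -0.58, SE 0.13, limma adjusted p = 0.0166). Exons of WIPI1 overlap the sulfatase gene ARSG on the opposite strand. ATG5, part of the complex that attaches LC3 to lipid, was at 19.8, 19.6 and 19.7 FPKM in shNC and 17.6, 17.8 and 17.5 in shHMGA1 (log2 fold change -0.15, SE 0.05, limma adjusted p = 0.0493). It had the smallest change of the genes that fell and lost its call whichever library was dropped (adjusted p from 0.0588 to 0.149). MAP1LC3B and NBR1 were called in all 6. For GABARAPL2 the call ended on dropping shNC replicate 1 or 2 (range 0.0158 to 0.0528). For WIPI1 it ended on dropping either of these or shHMGA1 replicate 3 (range 0.00333 to 0.0613). The count of 5 was 2 with shNC replicate 1 or 2 absent and 3 with shHMGA1 replicate 3 absent.

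SQSTM1 (p62), a receptor that links ubiquitinated cargo to LC3, had a difference of opposite sign to that of NBR1. It was at 160, 153 and 170 FPKM in shNC and 172, 196 and 185 in shHMGA1. Every knockdown value was higher, the closest by a small margin (log2 fold change 0.19, 95% interval 0.04 to 0.34, limma adjusted p = 0.0603). SQSTM1 passed without shHMGA1 replicate 1 (adjusted p = 0.0262, in a range of 0.0262 to 0.183 over the fits that drop a library) and with a minimum mean of 5 FPKM (adjusted p = 0.0475, in a range of 0.0475 to 0.135). GABARAP itself, the most abundant member of its family here, was at 231 ± 6.5 FPKM in shNC and 249 ± 7.80 in shHMGA1 (SD, n = 3 each; log2 fold change 0.11, limma adjusted p = 0.107), with no overlap. GABARAPL1 was at 46.6, 46.8 and 54.6 FPKM in shNC and 45.5, 46.6 and 43.1 in shHMGA1, with overlapping groups (log2 fold change -0.12, SE 0.07, limma adjusted p = 0.24). ULK1, the kinase that starts autophagy, was at 9.03, 9.05 and 9.21 FPKM in shNC and 9.30, 8.36 and 8.76 in shHMGA1. Its log2 fold change of -0.04 had a 95% interval from -0.19 to 0.10. BECN1, of the lipid kinase complex, ATG7, the activating enzyme of LC3 conjugation, and ATG16L1, which sets the site of conjugation, had log2 fold changes of 0.01, 0.04 and -0.05, and the widest interval of the 3 was -0.33 to 0.24.

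**Figure D3:**
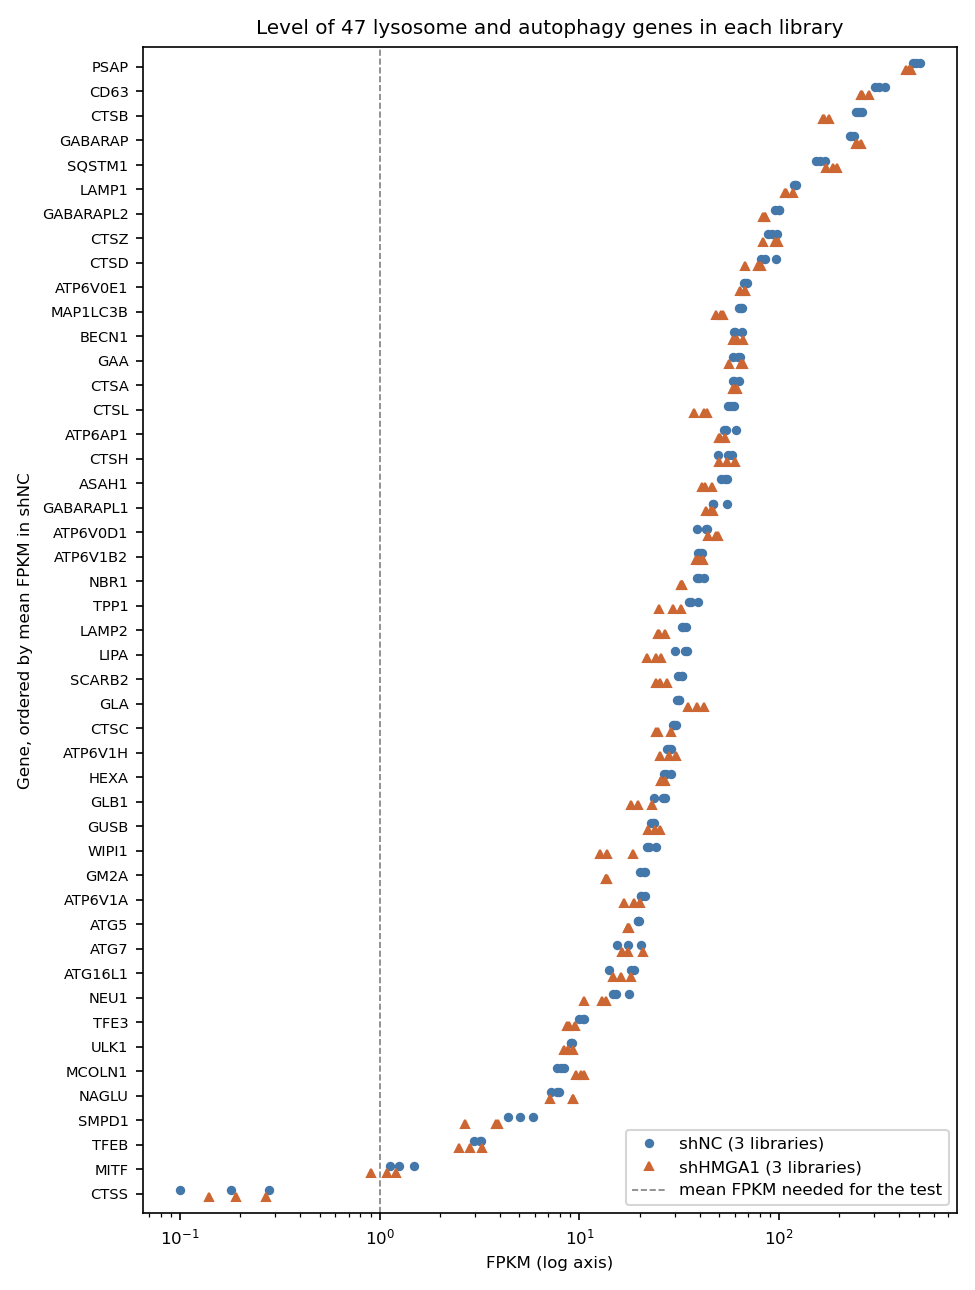
FPKM of all 47 genes is plotted on a log axis, with 1 point per library (circles shNC, triangles shHMGA1), ordered by the shNC mean. Levels ran from PSAP at 488 FPKM to CTSS at 0.187 in shNC, and CTSB, GM2A, CTSL, LAMP2 and MAP1LC3B show triangles well to the left of the circles.

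By level, PSAP, CD63, CTSB, GABARAP, SQSTM1 and LAMP1 were the 6 most abundant of the 47 in shNC, with means of 488, 319, 251, 231, 161 and 120 FPKM, which are values per length. In shHMGA1 CTSB (171 FPKM) lay below GABARAP (249) and SQSTM1 (184), so the order among these genes changed. The 47 genes together summed to 2955 to 3135 FPKM in shNC and 2697 to 2823 in shHMGA1. That was 0.363% to 0.374% of all FPKM in the controls and 0.326% to 0.346% in the knockdown.

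Other genes of the same pathway were followed in 8 lists. In the list of other lysosomal enzymes 10 of 27 tested genes fell and 4 rose (37.0% and 14.8%, beside 12.3% and 16.1% of all genes), with a median log2 fold change of -0.17. SCPEP1, a serine carboxypeptidase, went from 41.9 ± 1.88 to 27.6 ± 2.24 FPKM (SD, n = 3 each; log2 fold change -0.59, limma adjusted p = 0.00218). NPC2, the cholesterol carrier of the lysosome, and the cysteine protease CTSV fell with log2 fold changes of -0.40 and -0.45. These 3 genes were called with any 1 library left out. The count of 4 enzymes that rose was 1 with shNC replicate 1 or 3 absent, 2 with shNC replicate 2, shHMGA1 replicate 2 or shHMGA1 replicate 3 absent, and 2 with the replicate number as a block. The count of 10 that fell ran from 7 to 10 over the fits that drop a library.

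In the list of other lysosomal membrane proteins 7 of 19 fell and 1 rose (36.8% and 5.26%, beside 12.3% and 16.1% of all genes). Their median log2 fold change was -0.20. In the authors' deposited table it was -0.01, with 9 of the 19 lower and 3 higher by adjusted p. LAMP3, a LAMP family protein, went from 3.98 ± 0.336 to 1.90 ± 0.248 FPKM (SD, n = 3 each; log2 fold change -0.78, limma adjusted p = 0.00317). The sialic acid exporter SLC17A5 (-0.40), LAPTM4A (-0.28) and LMBRD1 (-0.42), needed for lysosomal export of cobalamin, fell too, as log2 fold changes. The count of 7 was 4 on dropping any library other than shHMGA1 replicate 1, where it was 7, and 4 with the replicate number as a block. The 1 that rose was 0 on dropping shNC replicate 1, shNC replicate 2, shHMGA1 replicate 2 or shHMGA1 replicate 3. Of 15 other V-ATPase subunits 2 fell (13.3%, close to the 12.3% among all genes) and 0 rose. The 2 were ATP6V0A1 of the membrane sector and the accessory protein ATP6AP2. ATP6V0A1 went from 29.4 ± 0.415 to 22.9 ± 0.510 FPKM (limma adjusted p = 0.0033, SD, n = 3 each). ATP6AP2 went from 60.1 ± 3.33 to 50.05 ± 0.293 (limma adjusted p = 0.0125). Both calls held on dropping any library, and their list had a median log2 fold change of 0.07. For the sorting of lysosomal enzymes, 2 of 12 fell (VPS26A and SORT1, 16.7%) and 1 rose (NAGPA, 8.33%), beside 12.3% and 16.1% of all genes. The counts were 0 and 2 under the replicate block. Dropping shNC replicate 1, shNC replicate 2, shHMGA1 replicate 2 or shHMGA1 replicate 3 left 0 that fell, and dropping shNC replicate 1 or shHMGA1 replicate 3 left 0 that rose.

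Of 26 other core genes of autophagy 3 fell (ATG4A, ATG12 and WDR45B) and 1 rose. The share that fell was 11.5%, close to the 12.3% among all genes. AMBRA1, which regulates the start of autophagy, was the gene that rose, from 8.15 ± 0.365 to 11.1 ± 0.443 FPKM (SD, n = 3 each; log2 fold change 0.41, limma adjusted p = 0.00514). The 3 that fell were 0 on dropping shNC replicate 1, shNC replicate 2 or shHMGA1 replicate 3, 1 on dropping shNC replicate 3, and 5 on dropping shHMGA1 replicate 1. Of 11 other receptors 3 fell (27.3%, beside 12.3% of all genes) and 0 rose. OPTN, a receptor for damaged mitochondria and bacteria, went from 18.4, 19.6 and 17.7 FPKM to 12.4, 10.9 and 10.8 (log2 fold change -0.66, SE 0.07, limma adjusted p = 0.00177). BNIP3 (-0.53) and BNIP3L (-0.37), mitochondrial receptors that hypoxia induces, fell as well, BNIP3L with a call that was kept only on dropping shHMGA1 replicate 1 (adjusted p up to 0.141). In the list for fusion of autophagosomes with lysosomes 1 of 13 fell (7.69%, below the 12.3% among all genes). It was the small GTPase RAB7A (log2 fold change -0.16, limma adjusted p = 0.0466). The call of RAB7A was likewise kept only with shHMGA1 replicate 1 absent, where 3 genes of the list fell and 1 rose.

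The genes of mTORC1 and its control went both ways, with 5 of 29 lower and 4 higher (17.2% and 13.8%) and a median of 0.02. These shares were near the 12.3% lower and 16.1% higher among all genes tested. DEPTOR, an inhibitor of mTOR, went from 3.93, 4.90 and 4.38 FPKM in shNC to 2.60, 2.50 and 2.71 in shHMGA1 (log2 fold change -0.58, SE 0.09, limma adjusted p = 0.00596). SESN3, a stress-induced inhibitor of the complex, also fell (log2 fold change -0.53, limma adjusted p = 0.00796). Higher were AKT1S1, whose product binds and inhibits mTORC1 (log2 fold change 0.41), and RPTOR, the subunit that recruits its substrates (0.30). MLST8 (0.28) and MTOR (0.25) rose too. RRAGD, a GTPase that TFEB family factors are known to induce, was among the 5 that fell (log2 fold change -0.39, limma adjusted p = 0.016; named after its value was seen). The others that fell were RRAGC (-0.21) and CASTOR1 (-0.44). Calls of DEPTOR, SESN3 and AKT1S1 held on dropping any library. MLST8 and MTOR were called in 2 and 3 of the 6 fits that drop a library, and RRAGC and CASTOR1 in 1 each. The 5 that fell were 2 on dropping shHMGA1 replicate 3 and 3 on dropping any shNC library, and the 4 that rose were 1 on dropping shNC replicate 1.

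**Figure D4:**
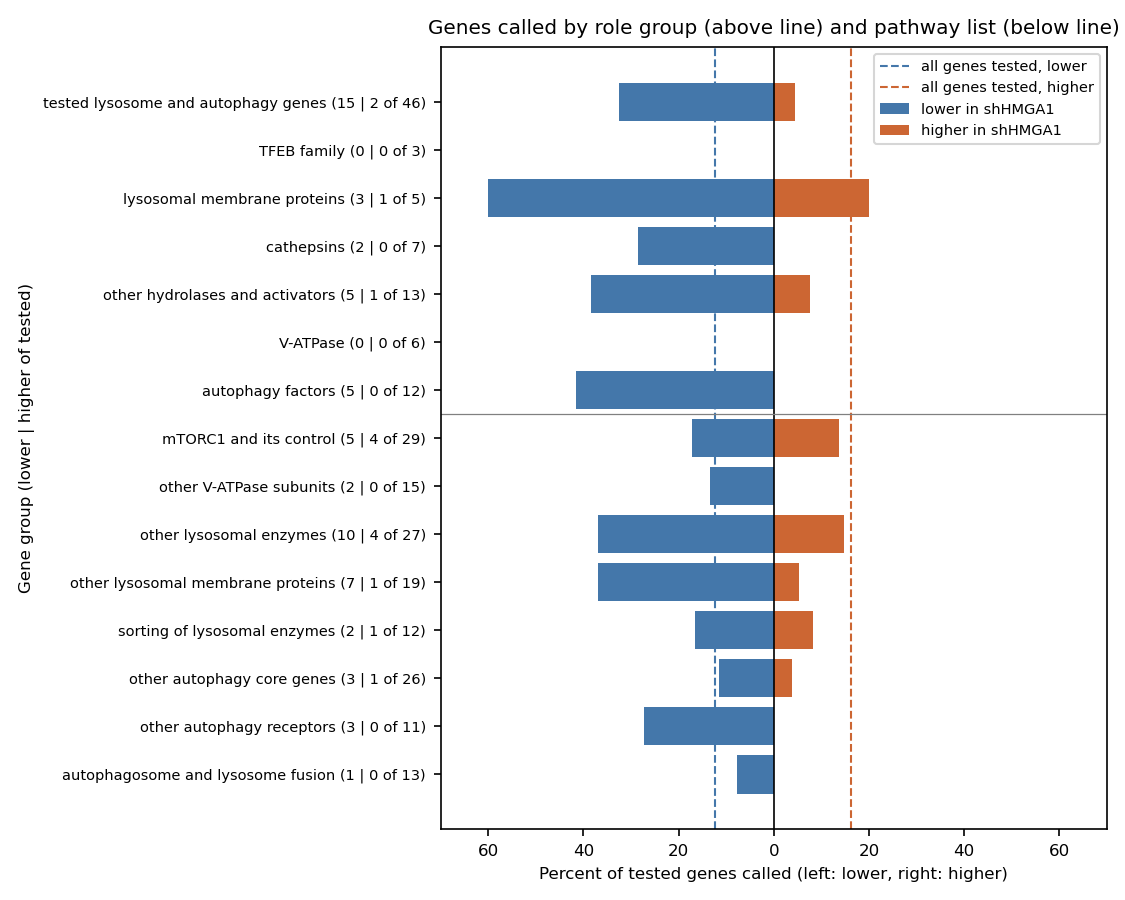
Bars give the percent of tested genes called lower (blue, to the left) and higher (orange, to the right) in shHMGA1 for the 46 tested genes, their role groups (above the line) and the 8 lists of other pathway genes (below it). The dashed lines mark all genes tested, 12.3% lower and 16.1% higher. The 6 V-ATPase subunits and the TFEB family have no bar. To the left, the bars of other autophagy core genes and of autophagosome and lysosome fusion stop short of the blue line. The remaining bars pass it, that of the other V-ATPase subunits narrowly (13.3%).

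The authors' deposited table gives its own fold change and adjusted p for 46 of the 47 genes. There, 20 were lower and 3 higher at an adjusted p under 0.05, beside 16.7% lower and 17.5% higher among all 16509 genes with an adjusted p there. All 17 genes called by FPKM were called in the same direction in the authors' deposited table. The 6 called there and not by FPKM were LAMP1, CTSD, NEU1, PSAP and SMPD1, all lower, and SQSTM1, with a log2 fold change of 0.24 in the authors' deposited table (adjusted p 0.000468). Signs differed for 2 genes with changes near 0, GAA and BECN1. The largest difference between the sources was for MITF, at -0.36 in the authors' deposited table and -0.14 by FPKM. With a pseudocount of 0.1 in place of 1 the FPKM value for MITF was -0.25. Both sources come from the same libraries, so their overlap is not independent support.

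**Figure D5:**
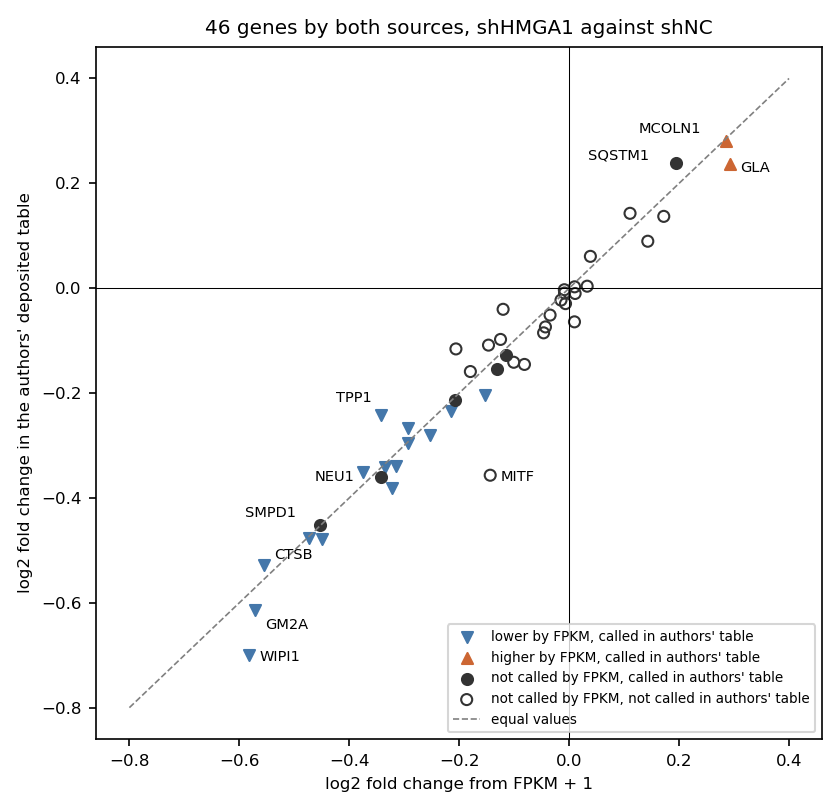
The log2 fold change in the authors' deposited table is plotted against that from FPKM + 1 for 46 genes, with the dashed line at equal values. Filled points were called in the authors' deposited table and triangles were called by FPKM; most points lie near the line, and MITF lies 0.213 below it.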

How the data were processed

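Poly-A RNA was sequenced in 6 libraries, per the labels' protocols. The authors' table holds FPKM per library, rounded to 2 decimals, on build hg38 per the submitters' processing notes. Per the file headers it also holds the authors' own comparison, with a group signal (on a scale like normalized counts), a log2 fold change, a p-value and its adjusted value. Aligner, counter, strand setting and annotation were not given in the sources used here. Tests were run by limma 3.58.1 (R 4.3.3) on log2(FPKM + 1), two-sided, eBayes with trend, in the 14304 genes whose mean reached 1 FPKM, and p-values were adjusted by Benjamini-Hochberg over these. FPKM gives no absolute depth, and this scale understates changes of low genes. Relative depth came from 131 to 169 genes per library that were at 0.15 FPKM or more in both libraries compared and above 0 in at most 3. Libraries of the same size were simulated (shHMGA1 against shNC, 14152 genes tested, 200 of them changed, drawn from genes at a mean of at least 5 FPKM). The test recovered 92% of changes of 1 and 65% of changes of 0.5 on the log2 scale, and called 8 unchanged genes. Recovery was not simulated for lower genes such as TFEB, MITF and SMPD1. Fewer genes were changed than were called in the data, so the adjusted threshold differed too.

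The genes, role groups and 8 lists were chosen with earlier results of these data known. Values in every library are given for the TFEB family, for up to 6 called genes of each other role group and for 10 reference genes, and each list names up to 4 called genes by adjusted p. A gene that this rule names is not reported here. Genes outside this rule are given by mean, fold change or range. Those named outside it from the mTORC1 list are RRAGD, MLST8, MTOR, RRAGC and CASTOR1. All 47 Ensembl IDs were found in GENCODE 29 (same build), which gave positions. In 19 of the genes an exon overlaps another gene, in 7 on the same strand, and such reads may not be separable. The exact permutation test used scipy 1.17.1.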

Additional observations from a re-analysis of the deposited data

How the results depend on the processing

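Of the 17 genes called, 8 (LAMP2, SCARB2, CTSB, CTSL, GM2A, LIPA, MAP1LC3B and NBR1) were called the same way under all 17 alternatives, and HMGA1 was lower in each. No called gene changed sign, while 10 genes near 0 did. Over the 11 alternatives that kept every library (2 other pseudocounts, 2 other filters on low values, 3 scalings, no mitochondrially encoded genes, the replicate block, no trend, robust eBayes) 11 to 20 of these genes were lower and 1 to 3 higher. Without a filter on low values 1 was higher, and over all genes 1478 were higher. With 1 library left out, 8 to 14 of the genes were lower and 0 to 5 higher. All genes higher ran from 1138 to 2626, and all genes lower from 952 to 1973. Higher genes were 56.8% of all calls, and 47.4% without mitochondrially encoded genes, the alternative with the lowest share. No scaling moved the median of all genes tested by 0.1. Deviations of same-numbered libraries from their group means were nearly uncorrelated over all genes (0.0202, -0.0364 and 0.041). The labels do not say whether the numbers pair the libraries. These correlations cannot settle it, since an effect on few genes would not show in them. With the replicate number as a block 13 of the genes were lower and 2 higher, and among all genes 1495 were lower and 1913 higher. CTSS was below the minimum for the test.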

Other observations

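Ratios between genes of the same library do not change when the library is multiplied by a single factor. Quantile scaling is not of that kind and can change them. The pairs below were chosen after their values were seen, so they are descriptions with no test. SQSTM1 over MAP1LC3B was 2.55, 2.33 and 2.64 in shNC and 3.29, 4.04 and 3.60 in shHMGA1, higher in every knockdown library than in any control. GABARAP over GABARAPL2, 2 proteins of the same family, was 2.28, 2.26 and 2.50 in shNC and 2.87, 2.89 and 3.09 in shHMGA1. MCOLN1 over LAMP2, both of the lysosomal membrane, had a mean of 0.243 ± 0.0145 in shNC and 0.396 ± 0.0214 in shHMGA1 (SD, n = 3 each). GLA over GM2A, both of glycolipid breakdown, went from 1.50 ± 0.0497 to 2.83 ± 0.228, which was 1.88 times the control ratio and the largest shift among the 7 pairs. Between proteases, CTSB over CTSA went from 4.16 ± 0.0364 to 2.84 ± 0.132. In all 7 pairs the groups did not overlap.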
